A study of Mus musculus with 6 samples.

Results

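Glucocorticoids are steroid hormones that dampen lymphocyte activity. In the textbook account the hormone enters the cell and binds the glucocorticoid receptor, which leaves its Hsp90 chaperone complex, moves to the nucleus and activates target genes. Their products restrain NF-kB, AP-1 and MAP kinase signalling, shorten the life of cytokine mRNAs and tune the receptor itself. The genes described here are 8 members of this system: the receptor gene Nr3c1; the receptor-complex gene Fkbp5; Tsc22d3, which encodes the leucine-zipper protein GILZ; the kinase gene Sgk1; Txnip, which encodes a thioredoxin-binding arrestin; the mRNA-decay genes Zfp36 and Zfp36l2; and the phosphatase gene Dusp1.

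The 8 genes were listed by name and matched by gene symbol, and all 8 were present among the 15601 genes of the count table. They were chosen by name with their measured levels in the tamoxifen and oil libraries already known, so their differences between those groups are given as descriptions, without a test of their own. All 8 were among the 10811 genes that passed the filter on low counts. No label mentions a glucocorticoid; the name of the group refers to what is known of these genes elsewhere. Nr3c1 encodes the receptor and is not itself a standard induced gene, so the name suits the other 7 better.

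Gene expression was measured in mouse liver cells that the labels call lymphocytes, from 3 libraries after tamoxifen, which binds oestrogen receptors and serves elsewhere to switch on inducible Cre recombinases, and 3 libraries after corn oil. The design text names them as type 1 innate lymphoid cells (ILC1s), a tissue-resident relative of natural killer (NK) cells, and the series title concerns the nuclear receptor RORα. The sources used here do not give strain, genotype, allele, Cre driver, age, dose, time, or how many cells or animals went into a library; the extraction protocol is worded for single cells. No label states that the libraries are of different animals, so the error in every p-value is that between libraries and could be purely technical.

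Total counts were 5358622 to 5849947 in the tamoxifen libraries and 5289803 to 6325899 in the oil libraries. The 10 markers of ILC1s and NK cells, all detected, summed to 4799 to 5557 CPM (counts scaled to a common library size) in tamoxifen and 4804 to 5363 CPM in oil. The sums of 7 of the 8 other cell type lists overlapped between the groups. T cell markers summed to 907 to 1316 CPM in tamoxifen and 1014 to 1298 CPM in oil, and B cell markers to 367 to 400.5 CPM in tamoxifen and 400.1 to 486 CPM in oil, although Cd79a, Ms4a1 and Pax5 had no row in the table. Erythroid markers were the most uneven, at 74.9 to 233 CPM in tamoxifen and 3.11 to 571 CPM in oil. Hepatocyte markers summed to 27.5 to 35.9 CPM in tamoxifen and 20.7 to 35.8 CPM in oil, endothelial markers to 33.3 to 55.5 CPM in tamoxifen and 45.9 to 51.0 CPM in oil, and dendritic cell markers to 18.6 to 19.9 CPM in tamoxifen and 19.6 to 29.4 CPM in oil. Neutrophil markers reached at most 0.191 CPM in tamoxifen and 2.02 CPM in oil. The exception was the macrophage and Kupffer cell list, with 9 of 11 markers detected and a sum of 35.0 to 38.2 CPM in tamoxifen against 27.5 to 33.7 CPM in oil. In that list Adgre1 and Marco had no row in the count table. Cd68 averaged 28.4 CPM in tamoxifen and 20.8 CPM in oil, and Csf1r averaged 3.22 CPM in tamoxifen and 6.80 CPM in oil. Several of the 8 genes are also active in macrophages; the part of such cells in the results was not tested.

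Single markers differed more than these sums, which a few abundant genes dominate. Among the ILC1 and NK cell markers the tamoxifen libraries were all lower for Cxcr6, a chemokine receptor gene of liver-resident cells, which averaged 131 ± 23.3 CPM in tamoxifen and 364 ± 145 CPM in oil (SD, n = 3 each; log2 fold change -1.47, SE 0.29). The integrin gene Itga1, a marker of ILC1s (CD49a), averaged 14.5 ± 4.60 CPM in tamoxifen and 33.2 ± 1.97 CPM in oil (-1.19, SE 0.29), and Itga2, a marker of NK cells (CD49b), averaged 10.5 ± 3.49 CPM in tamoxifen and 19.6 ± 6.72 CPM in oil (-0.90, SE 0.38), again without overlap. Klrb1c (NK1.1) was the reverse, at 944 ± 70.7 CPM in tamoxifen and 787 ± 67.1 CPM in oil (0.26, SE 0.15). The dendritic cell genes Xcr1 (0.917 ± 1.003 CPM in tamoxifen, 5.296 ± 1.78 CPM in oil) and Zbtb46 (2.21 ± 1.47 CPM in tamoxifen, 7.56 ± 2.52 CPM in oil) were lower in every tamoxifen library, while H2-Aa had 29 counts in tamoxifen and 1 in oil. Groups also did not overlap for Ighm (377 CPM in tamoxifen, 439 CPM in oil), the hepatocyte gene Trf (25.6 CPM in tamoxifen, 17.3 CPM in oil), Csf1r, and C1qa, with 16 counts in tamoxifen and 4 in oil. H2-Aa and C1qa did not pass the filter on low counts, and none of the other markers named here passed the edgeR test over all genes. These markers differed between the same groups of libraries as the 8 genes, some lower and some higher in tamoxifen. The part of a different cell make-up in the results below was not tested. The libraries are bulk samples, so fewer cells of a type and less RNA per cell cannot be told apart.

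Stretches from promoter windows of 3 of the genes are printed because each holds a different response-element motif. These are a steroid receptor motif in Sgk1, a glucose-response motif in Txnip and a cyclic AMP motif in Dusp1. Other motifs found, in these and in other windows, are given below. RefSeq promoter windows (GRCm38.p6), from 250 bases before a start to 50 bases after it, were used for 6 of the 8 genes, with 3 windows for Tsc22d3, 6 for Sgk1 and 1 each for Txnip, Fkbp5, Zfp36 and Dusp1. Each stretch runs 5′ to 3′ on the gene's strand with the element in capitals: the full glucocorticoid response element in Sgk1 (chr10:21993641-21993775, plus strand), the carbohydrate response element in Txnip (chr3:96557812-96557948, plus strand) and the cyclic AMP response element in Dusp1 (chr17:26508548-26508675, minus strand).
Sgk1: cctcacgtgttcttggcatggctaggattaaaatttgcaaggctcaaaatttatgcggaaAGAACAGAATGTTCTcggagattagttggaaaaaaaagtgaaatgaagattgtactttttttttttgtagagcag
Txnip: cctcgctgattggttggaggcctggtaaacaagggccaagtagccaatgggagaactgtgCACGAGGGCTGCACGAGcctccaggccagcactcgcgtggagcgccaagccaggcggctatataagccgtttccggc
Dusp1: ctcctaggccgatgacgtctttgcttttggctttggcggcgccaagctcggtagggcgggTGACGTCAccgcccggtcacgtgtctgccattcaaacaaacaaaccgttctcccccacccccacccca

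The Sgk1 element begins 189 bases before an internal RefSeq start and lies inside the gene, in no exon of GENCODE M21. It is a perfect inverted repeat of the half-site AGAACA with 3 bases between its arms. Both strands were searched, and 3 of 32841 windows (0.00913%) held such a full element. The half-site alone was present in 19.0% of all windows, in 3 of the 6 Sgk1 windows (the full element counted among them) and in 1 of the 3 Tsc22d3 windows, and in none of the Txnip, Fkbp5, Zfp36 and Dusp1 windows.

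The Txnip element, a pair of CACGNG motifs with 5 bases between them, begins 85 bases before the start, upstream of the gene and within an exon of the antisense transcript Gm15441. Sites of this kind are bound by the glucose sensor MondoA, and 0.0487% of all windows held one. The same window held a forkhead site (GTAAACA, in 3.65% of windows), the motif of FOXO factors. In Dusp1 the palindrome TGACGTCA, the site of CREB, was present in 1.79% of windows and begins 143 bases before the start, in no exon; its core TGACG, which overlaps it and was found in 20.8% of windows, also occurred 191 bases before the start. The core TGACG also occurred in an Sgk1 window, 236 bases before its start, and in a Tsc22d3 window, 224 bases before its start. The Zfp36 window held a CArG box, the serum response factor motif, found in 1.63% of windows. The TATA box TATAAA (13.6% of windows) occurred in 2 of the 6 Sgk1 windows. These are matches of letters in a short window and say nothing about binding in these cells, nor about elements farther away.

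Per length, the 8 genes spanned a wide range of levels. In the authors' FPKM, which divide the counts by transcript length as well as by depth, Zfp36 averaged 233 ± 15.0 in tamoxifen and 181 ± 11.3 in oil (SD, n = 3 each), above 98.5% and 98.0% of all listed genes. Dusp1 averaged 176 ± 23.2 FPKM in tamoxifen and 136 ± 15.1 FPKM in oil. Zfp36l2 averaged 58.6 ± 14.1 FPKM in tamoxifen and 40.5 ± 9.78 FPKM in oil, and Tsc22d3 averaged 49.9 ± 1.18 FPKM in tamoxifen and 25.8 ± 2.34 FPKM in oil. Txnip and Sgk1 were neighbours in the order, at 16.0 ± 2.20 and 14.4 ± 0.792 FPKM in tamoxifen and at 9.28 ± 2.09 and 8.62 ± 1.28 FPKM in oil, and did not differ from each other beyond their spread in either group. Fkbp5 (3.28 ± 0.177 FPKM in tamoxifen, 2.32 ± 0.356 FPKM in oil) and Nr3c1 (2.67 ± 0.90 FPKM in tamoxifen, 3.003 ± 1.08 FPKM in oil) were the lowest and likewise lay within their spread of each other. In tamoxifen library 1 Tsc22d3 (51.0 FPKM) exceeded Zfp36l2 (43.6 FPKM), so Zfp36l2 did not stand clear of it. Zfp36 and Dusp1 thus stood highest and the receptor and its co-chaperone gene lowest.

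**Figure D1:**
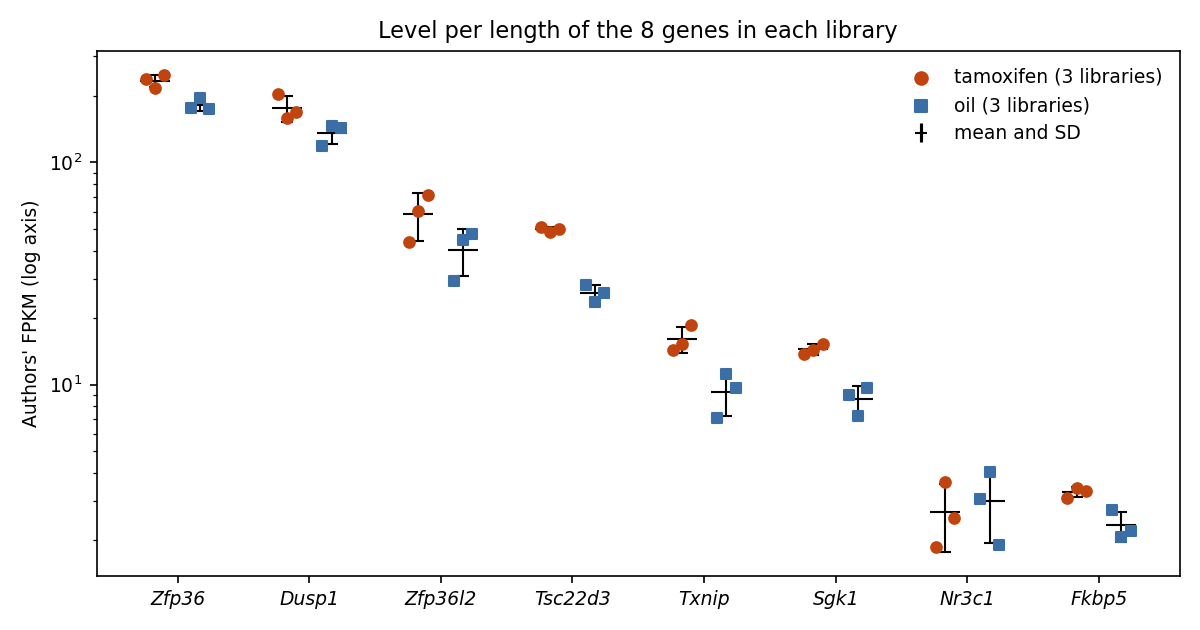
The authors' FPKM (log axis) of the 8 genes in each of the 3 tamoxifen libraries (circles) and 3 oil libraries (squares), with the mean and SD of each group, ordered by the mean in oil. Zfp36 and Dusp1 lie above 100 FPKM in every library, Fkbp5 and Nr3c1 below 5, and the groups overlap for Zfp36l2 and Nr3c1.

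Between the groups, 7 of the 8 genes had a higher estimate in tamoxifen, and Nr3c1 was the exception. The median log2 fold change of the 8 genes was 0.52, beside -0.004 over all 10811 genes tested, of which 49.5% had a higher estimate. The 3 tamoxifen libraries all exceeded the 3 oil libraries in 6 of the 8, where 4.52% of all tested genes were separated in this way. By edgeR's quasi-likelihood test with adjustment over all tested genes (adjusted p under 0.05), 0 of the 8 passed, beside 0.00925% of all tested genes. At an unadjusted p under 0.05 they numbered 6, beside 3.52%, and DESeq2 called 1, Tsc22d3, beside 0.167%. The authors' deposited table lists 1 of the 8, again Tsc22d3, at a q-value under 0.05, beside 0.147% of its genes. Since the members were chosen with these differences in view, none of these counts is read as evidence.

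**Figure D2:**
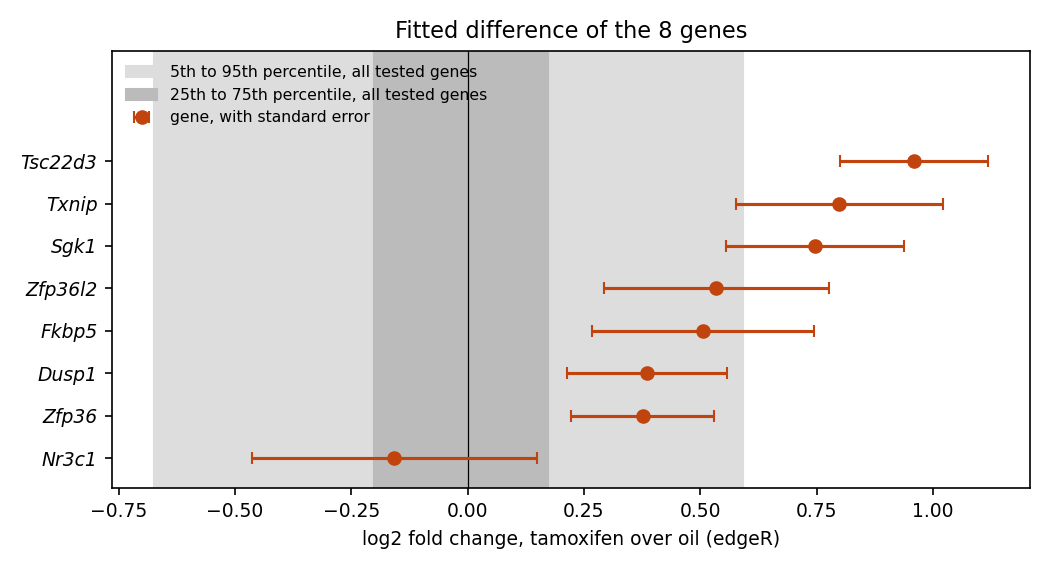
Fitted log2 fold change (tamoxifen over oil) of each of the 8 genes with its standard error, over bands for the 5th to 95th and the 25th to 75th percentile of all 10811 tested genes. Tsc22d3 (0.96), Txnip (0.80) and Sgk1 (0.75) lie beyond the 95th percentile of 0.59, and Nr3c1 lies at -0.16.

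Tsc22d3 showed the widest separation. Its product GILZ binds NF-kB and AP-1 and is a classical mediator of glucocorticoid action in T cells. Tsc22d3 (ENSMUSG00000031431; mm10 chromosome X, 140539528 to 140600659, minus strand) stood at 421, 380 and 413 CPM in tamoxifen libraries 1, 2 and 3, against 223, 183 and 218 CPM in oil libraries 1, 2 and 3. The lowest tamoxifen library exceeded the highest oil library by 157 CPM, and the tamoxifen libraries lay close together. The means were 404 ± 21.8 CPM in tamoxifen and 208 ± 21.7 CPM in oil (SD, n = 3 each), a ratio of 1.95 and a log2 fold change of 0.96 (SE 0.16), above that of 98.2% of tested genes. The counts behind these values were 6726 in tamoxifen and 3614 in oil.

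Other TSC22 family genes had no higher estimate in tamoxifen. Tsc22d4, a widely expressed relative, averaged 13.5 ± 2.82 FPKM in tamoxifen and 18.1 ± 3.28 FPKM in oil (log2 fold change -0.41, SE 0.19). Tsc22d1 averaged 0.704 ± 0.191 FPKM in tamoxifen and 1.11 ± 0.259 FPKM in oil (-0.65, SE 0.31). In both, the tamoxifen libraries were all lower in CPM than the oil libraries, narrowly for Tsc22d1 (18.06 CPM in tamoxifen library 2 and 18.11 CPM in oil library 2), as in 4.35% of tested genes. Tsc22d2 stood at 0.762 ± 0.126 FPKM in tamoxifen and 0.793 ± 0.0163 FPKM in oil. None of the 3 passed the test over all genes, and their differences from Tsc22d3 were not tested.

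Sgk1 encodes an AGC-family kinase that acts downstream of PI3K and phosphorylates the ubiquitin ligase NEDD4-2 and FOXO3. Sgk1 (ENSMUSG00000019970; chromosome 10, 21882184 to 21999903, plus strand), with the element printed above, reached 143, 143 and 160 CPM in tamoxifen libraries 1, 2 and 3, against 90.2, 71.3 and 104 CPM in oil libraries 1, 2 and 3. The groups did not overlap, and the oil libraries were the more scattered. The means were 149 ± 9.58 CPM in tamoxifen and 88.5 ± 16.4 CPM in oil (SD, n = 3 each; log2 fold change 0.75, SE 0.19). Its relative Sgk3 averaged 1.27 ± 0.475 FPKM in tamoxifen and 1.09 ± 0.421 FPKM in oil, so that Sgk1 was the more abundant of the pair per length.

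Txnip encodes an arrestin-like protein that binds thioredoxin and holds down glucose uptake. Txnip (ENSMUSG00000038393; chromosome 3, 96557957 to 96561883, plus strand) was measured at 102, 102 and 131 CPM in tamoxifen libraries 1, 2 and 3, against 47.9, 74.8 and 69.6 CPM in oil libraries 1, 2 and 3. No tamoxifen library reached down into the oil range, and oil library 1 was the lowest. The means were 112 ± 16.8 CPM in tamoxifen and 64.1 ± 14.3 CPM in oil (SD, n = 3 each; log2 fold change 0.80, SE 0.22). Exons of the antisense transcript Gm15441 share 19.4% of the Txnip exon bases, and whether reads were counted by strand is unknown here, so reads of the pair may be mixed. Opposite-strand exons share 3.6% of Zfp36, 2.97% of Zfp36l2 and 0.332% of Dusp1 exon bases. Gm15441 itself was counted at 12.1 ± 2.74 CPM in tamoxifen and 7.85 ± 3.68 CPM in oil, with overlapping groups.

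The related arrestin-domain genes differed less or had a lower estimate in tamoxifen. Arrdc1 averaged 22.2 ± 0.988 FPKM in tamoxifen and 21.8 ± 1.47 FPKM in oil (log2 fold change 0.04, SE 0.16). Arrdc4, which like Txnip answers to MondoA, averaged 1.27 ± 0.521 FPKM in tamoxifen and 1.18 ± 0.303 FPKM in oil. Arrdc3 averaged 0.994 ± 0.486 FPKM in tamoxifen and 1.75 ± 0.612 FPKM in oil (-0.81, SE 0.43).

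Fkbp5 encodes FKBP51, the Hsp90 co-chaperone that lowers the affinity of the receptor for hormone and closes a negative feedback loop. Fkbp5 (ENSMUSG00000024222; chromosome 17, 28399095 to 28517524, minus strand) stood at 35.2, 36.9 and 38.0 CPM in tamoxifen libraries 1, 2 and 3, against 29.9, 22.1 and 25.5 CPM in oil libraries 1, 2 and 3. The groups did not overlap, although the gap between them was only 5.34 CPM. The means were 36.7 ± 1.41 CPM in tamoxifen and 25.8 ± 3.87 CPM in oil (SD, n = 3 each; log2 fold change 0.51, SE 0.24). The lowest library, oil 2, held 121 counts (95% exact Poisson interval 100 to 145 counts, for counting error only).

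FKBP52, the product of Fkbp4, competes with FKBP51 for the receptor complex and acts in the opposite sense. Fkbp4 averaged 65.0 ± 11.6 FPKM in tamoxifen and 79.9 ± 6.45 FPKM in oil (log2 fold change -0.29, SE 0.17), with the 3 tamoxifen libraries all lower in CPM than the 3 oil libraries. The ratio of Fkbp5 to Fkbp4 in FPKM was 0.0484, 0.0443 and 0.0616 in tamoxifen libraries 1, 2 and 3, against 0.0324, 0.0247 and 0.0301 in oil libraries 1, 2 and 3. This ratio only restates the differences already given for Fkbp5 and Fkbp4 and was not tested. Fkbp4 remained by far the more abundant of the pair in every library.

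Zfp36 and Zfp36l2 encode CCCH zinc-finger proteins (tristetraprolin and its relative) that bind AU-rich elements of cytokine mRNAs and recruit the deadenylation machinery. Zfp36 (ENSMUSG00000044786; chromosome 7, 28376784 to 28379255, minus strand) stood at 434, 377 and 452 CPM in tamoxifen libraries 1, 2 and 3, against 309, 337 and 328 CPM in oil libraries 1, 2 and 3. The groups did not overlap, and the 3 oil libraries lay close together. The means were 421 ± 39.3 CPM in tamoxifen and 325 ± 14.5 CPM in oil (SD, n = 3 each), a ratio of 1.30 and a log2 fold change of 0.38 (SE 0.15).

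Zfp36l2, which keeps developing lymphocytes quiescent in mice together with Zfp36l1, was more variable. Zfp36l2 (ENSMUSG00000045817; chromosome 17, 84183931 to 84187947, minus strand) stood at 158, 207 and 259 CPM in tamoxifen libraries 1, 2 and 3, against 102, 152 and 176 CPM in oil libraries 1, 2 and 3. Tamoxifen library 1 lay below oil library 3, so the groups overlapped. The means were 208 ± 50.4 CPM in tamoxifen and 144 ± 37.9 CPM in oil (SD, n = 3 each; log2 fold change 0.53, SE 0.24). The third gene of the family, Zfp36l1, averaged 18.4 ± 2.70 FPKM in tamoxifen and 21.8 ± 2.95 FPKM in oil (-0.23, SE 0.19). Per length Zfp36 exceeded Zfp36l2 by 3.44 to 5.42 times in the tamoxifen libraries and by 3.67 to 5.96 times in the oil libraries.

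Dusp1 encodes MKP-1, a nuclear phosphatase that switches off p38 and JNK and is induced both by glucocorticoids and by stress. Dusp1 (ENSMUSG00000024190; chromosome 17, 26505590 to 26508519, minus strand) stood at 1066, 786 and 884 CPM in tamoxifen libraries 1, 2 and 3, against 599, 729 and 767 CPM in oil libraries 1, 2 and 3. The groups were separated by only 19.1 CPM, between tamoxifen library 2 and oil library 3. The means were 912 ± 142 CPM in tamoxifen and 698 ± 87.9 CPM in oil (SD, n = 3 each; log2 fold change 0.39, SE 0.17). Among other abundant dual-specificity phosphatases, Dusp2 averaged 99.4 ± 2.75 FPKM in tamoxifen and 85.4 ± 11.7 FPKM in oil (0.23, SE 0.17). Dusp5 averaged 87.0 ± 10.9 FPKM in tamoxifen and 89.4 ± 16.6 FPKM in oil (-0.03, SE 0.18), and Dusp6 averaged 21.7 ± 1.35 FPKM in tamoxifen and 23.8 ± 5.04 FPKM in oil (-0.12, SE 0.21).

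Dusp1 and Zfp36 are also immediate early genes that cell isolation can switch on, so that list was read beside them. Of its 22 tested genes, 8 had a higher estimate in tamoxifen and 14 a lower one, with a median log2 fold change of -0.09. Fos averaged 141 ± 24.0 CPM in tamoxifen and 158 ± 12.8 CPM in oil, Egr1 averaged 70.6 ± 25.9 CPM in tamoxifen and 72.5 ± 41.6 CPM in oil, and Ier2 averaged 632 ± 40.3 CPM in tamoxifen and 581 ± 69.5 CPM in oil; these 3 were named after their values were seen, and their groups overlapped. By the naming rule, Nr4a1 averaged 90.7 ± 44.5 CPM in tamoxifen and 125 ± 27.1 CPM in oil, Ier5 averaged 58.0 ± 23.5 CPM in tamoxifen and 47.3 ± 12.3 CPM in oil, and Ppp1r15a averaged 164 ± 38.2 CPM in tamoxifen and 134 ± 40.3 CPM in oil. The estimates for Dusp1 (0.39) and Zfp36 (0.38) lay above this median, and the difference was not tested. In 1 gene of the list, Ier3, the tamoxifen libraries were all higher, as in 4.52% of all tested genes. Its level was low, at 3.70 CPM on average in tamoxifen and 1.72 CPM in oil (log2 fold change 1.09, SE 0.59). The farthest gene of the list was the heat shock gene Hspa1b, with 0, 0.331 and 0 CPM in tamoxifen libraries 1, 2 and 3, against 4.04, 14.5 and 2.03 CPM in oil libraries 1, 2 and 3; it has a near-identical copy, Hspa1a, so its count is uncertain.

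Nr3c1, the receptor gene, showed no such difference between the groups. Nr3c1 (ENSMUSG00000024431; chromosome 18, 39410545 to 39491301, minus strand) stood at 31.9, 59.0 and 43.0 CPM in tamoxifen libraries 1, 2 and 3, against 50.2, 65.7 and 33.4 CPM in oil libraries 1, 2 and 3. The groups overlapped widely, and the spread within each group exceeded the difference between the means, which were 44.6 ± 13.6 CPM in tamoxifen and 49.8 ± 16.1 CPM in oil (SD, n = 3 each; log2 fold change -0.16, SE 0.31). The sign of this estimate turned without tamoxifen library 1 (0.03) and without oil library 2 (0.09). The mineralocorticoid receptor gene Nr3c2, whose product also binds glucocorticoids, had 5 counts over all 6 libraries.

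**Figure D3:**
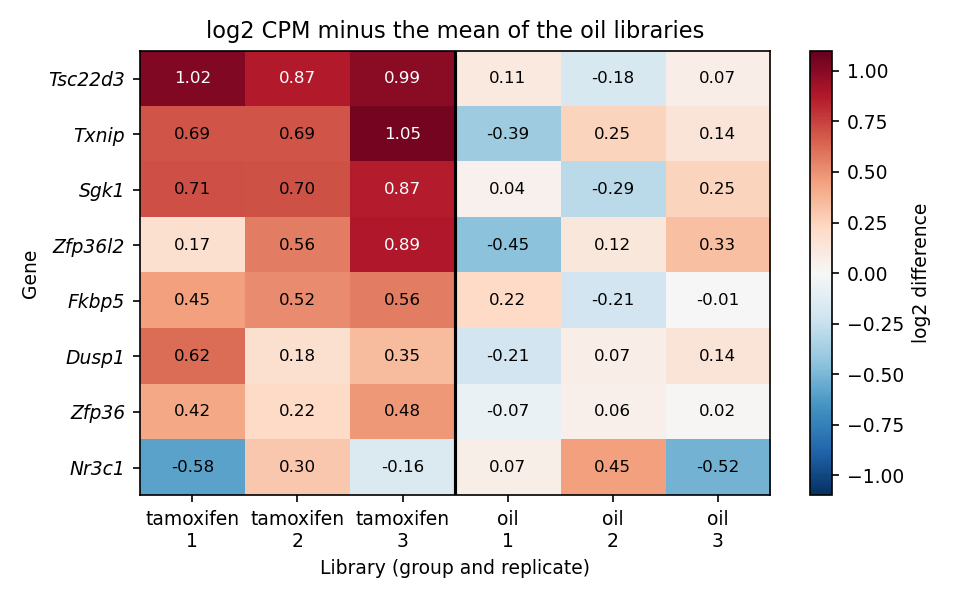
log2 CPM of each gene in each library minus the mean of the 3 oil libraries, with the tamoxifen libraries on the left. All 3 tamoxifen cells are positive for every gene but Nr3c1, whose values run from -0.58 in tamoxifen library 1 to 0.45 in oil library 2.

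Across libraries the shift was shared by the 3 tamoxifen libraries rather than carried by 1 of them. Relative to the mean of the oil libraries, the median over the 8 genes was 0.53, 0.54 and 0.71 (log2) in tamoxifen libraries 1, 2 and 3, against -0.01, 0.06 and 0.11 in oil libraries 1, 2 and 3. Within the tamoxifen group the genes did not move as a block. Tamoxifen library 1 held the highest Dusp1 and Tsc22d3 levels and the lowest Nr3c1 level of all 6 libraries, and tamoxifen library 3 the highest Sgk1, Txnip, Fkbp5, Zfp36 and Zfp36l2 levels. Oil library 1 was the lowest for Txnip, Zfp36, Zfp36l2 and Dusp1, and oil library 2 for Tsc22d3, Sgk1 and Fkbp5.

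The 8 genes also differed in how tightly the libraries agreed. The biological coefficient of variation that edgeR fitted within groups ran from 0.158 for Zfp36 and 0.160 for Tsc22d3 to 0.275 for Nr3c1, beside a median of 0.263 over all tested genes. It lay below that median in 7 of the 8 genes. Higher expressed genes generally have lower coefficients, but Fkbp5 had 0.221 at a lower mean level than Nr3c1. Fkbp5 averaged 36.7 CPM in tamoxifen and 25.8 CPM in oil, and Nr3c1 averaged 44.6 CPM in tamoxifen and 49.8 CPM in oil.

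By the pattern over the 6 libraries, the genes most like Tsc22d3 were Hgsnat, a lysosomal acetyltransferase gene (Pearson r of log2 CPM 0.99), P2ry10, a lymphocyte lipid receptor gene (0.99), Scp2, a sterol carrier gene (0.99), BC002059 (0.98) and AA467197 (0.98). Among the other members r was 0.96 for Sgk1, 0.94 for Fkbp5, 0.89 for Zfp36, 0.80 for Txnip, 0.74 for Dusp1, 0.59 for Zfp36l2 and -0.34 for Nr3c1. Of 7710 genes compared, 65 (0.843%) had an r over 0.9. These are descriptions over 6 libraries that share the group difference.

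Related genes were read from 7 lists that hold 178 further genes, 141 of them tested. Immediate early genes, FOXO targets and family relatives are among them, so the lists reach beyond the glucocorticoid system. By edgeR's quasi-likelihood test over all genes 0 of the 141 passed, beside 0.00925% of all tested genes. An unadjusted p under 0.05 was found in 7 of the 141, near the background of 3.52%, and DESeq2 called 1, the heat shock gene Hspa1b, beside 0.167%. Of the 141, 59 had a higher and 82 a lower estimate in tamoxifen. The tamoxifen libraries were all higher than the oil libraries in 6 of the 141, beside 4.52% of all tested genes. They were all lower in 10, beside 4.35%.

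Other genes known to be induced by glucocorticoids were mixed in direction. Of 21 tested, 13 had a higher estimate in tamoxifen and 8 a lower one (median log2 fold change 0.09). The size of this median was unstable: it was 0.29 with no filter on low counts (17 higher and 10 lower) and 0.11 to 0.19 with 1 library left out, highest without oil library 1. The tamoxifen libraries were all higher in Il7r, Mt1 and Cxcr4 and all lower in Irak3, Sesn1 and Rhob. These are 3 of the 21 in each direction, beside 4.52% and 4.35% of all tested genes. Levels were low for Mt1 (3.8 CPM in tamoxifen, 1.8 CPM in oil on average) and Cxcr4 (6.5 and 3.4 CPM). They were also low for Rhob (2.7 and 4.1 CPM) and Irak3 (1.2 and 7.0 CPM, log2 fold change -2.53, SE 0.81). Sesn1 was separated only narrowly, at 67.2 CPM in tamoxifen library 3 and 68.7 CPM in oil library 3. Il7r, the interleukin-7 receptor gene that glucocorticoids induce in T cells, averaged 36.5 ± 14.6 CPM in tamoxifen and 18.2 ± 3.89 CPM in oil (SD, n = 3 each; 1.01, SE 0.33). Cebpb, a transcription factor gene, averaged 76.7 ± 26.6 CPM in tamoxifen and 47.8 ± 18.0 CPM in oil (0.68, SE 0.32), and Rgs2, a regulator of G protein signalling, averaged 105 ± 16.96 CPM in tamoxifen and 79.8 ± 17.03 CPM in oil (0.39, SE 0.22). Exons of Tmem189 on the opposite strand share 20.7% of Cebpb exon bases.

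Several textbook targets were scarcely expressed. These were named after their values were seen. Per1, a clock gene, had 56 counts over the tamoxifen libraries and 29 over the oil libraries. Klf9, a Krüppel-like factor gene, had 16 counts in tamoxifen and 13 in oil, and Ddit4, an mTOR inhibitor gene, had 8 counts in tamoxifen and 5 in oil. Klf9 and Ddit4 did not pass the filter on low counts, so a difference in them was not detectable at this depth, where 3 counts correspond to 0.466 to 0.573 CPM. Nfkbia, which encodes IκBα and was named in the same way, was well expressed at 214 ± 24.8 CPM in tamoxifen and 226 ± 80.2 CPM in oil (SD, n = 3 each).

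Genes of the receptor machinery had more lower than higher estimates. Of 22 tested chaperone, co-chaperone, coregulator and ligand-enzyme genes, 7 had a higher estimate and 15 a lower one in tamoxifen (median log2 fold change -0.16). Dnaja1, an Hsp40 co-chaperone gene, stood at 163, 155 and 159 CPM in tamoxifen libraries 1, 2 and 3, against 215, 225 and 215 CPM in oil libraries 1, 2 and 3 (-0.46, SE 0.15). The groups did not overlap and were tight. The tamoxifen libraries were also all lower for Stip1, which hands clients from Hsp70 to Hsp90 (344 CPM in tamoxifen and 422 CPM in oil on average), and for Fkbp4. In all, 3 of the 22 were separated in this direction, beside 4.35% of all tested genes, and 0 in the other, beside 4.52%. Exons of Smu1 on the opposite strand share 7.05% of Dnaja1 exon bases. Nrip1, a nuclear receptor corepressor gene, averaged 12.8 ± 5.76 CPM in tamoxifen and 22.2 ± 5.53 CPM in oil, and H6pd, which supplies NADPH to the glucocorticoid-activating enzyme, averaged 12.2 ± 4.95 CPM in tamoxifen and 18.9 ± 13.3 CPM in oil.

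Genes that glucocorticoids repress in lymphocytes were 6 higher and 10 lower of 16 tested (median log2 fold change -0.13). In none were the groups separated, beside 4.52% of all tested genes with every tamoxifen library higher and 4.35% lower. A list of 16 is too short to read this as a lack. Xcl1, a chemokine gene, averaged 113 ± 21.9 CPM in tamoxifen and 184 ± 85.5 CPM in oil, Tbx21, the T-bet gene, averaged 184 ± 76.6 CPM in tamoxifen and 262 ± 146 CPM in oil, and Ccl5, another chemokine gene, averaged 3868 ± 1254 CPM in tamoxifen and 3001 ± 577 CPM in oil. Gm20743 on the opposite strand shares 18.7% of Xcl1 exon bases. Without oil library 3 the median turned to 0.07.

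Partners and substrates of the members were 10 higher and 19 lower of 29 tested (median log2 fold change -0.09). None was separated, beside 4.52% (higher) and 4.35% (lower) of all tested genes, which is likewise not read as a lack. Among them, Mlxip, the MondoA gene, averaged 64.3 ± 14.7 CPM in tamoxifen and 81.7 ± 31.8 CPM in oil. Slc2a3, a glucose transporter gene, averaged 87.8 ± 21.5 CPM in tamoxifen and 115 ± 50.1 CPM in oil, and Dcp1a, a decapping factor gene, averaged 20.8 ± 8.16 CPM in tamoxifen and 30.7 ± 4.002 CPM in oil. FOXO target and quiescence genes were 8 higher and 8 lower of 16 (median -0.002). Bcl2, a survival gene, averaged 158 ± 18.1 CPM in tamoxifen and 117 ± 17.4 CPM in oil (0.43, SE 0.18) with separated groups. Il7r, given above, is also on this list, and Cdkn1b, the gene of the cell cycle inhibitor p27, was narrowly lower in every tamoxifen library, at 5.08 CPM on average in tamoxifen and 7.65 CPM in oil (-0.59, SE 0.43). Btg1, an antiproliferative gene, averaged 456 ± 92.6 CPM in tamoxifen and 370 ± 71.2 CPM in oil.

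The relatives of the members as a whole were 11 higher and 14 lower of 25 (median log2 fold change -0.05). Beyond those given beside each member, Fkbp1a, the FKBP12 gene, averaged 254 ± 92.0 CPM in tamoxifen and 183 ± 20.8 CPM in oil (0.47, SE 0.24).

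**Figure D4:**
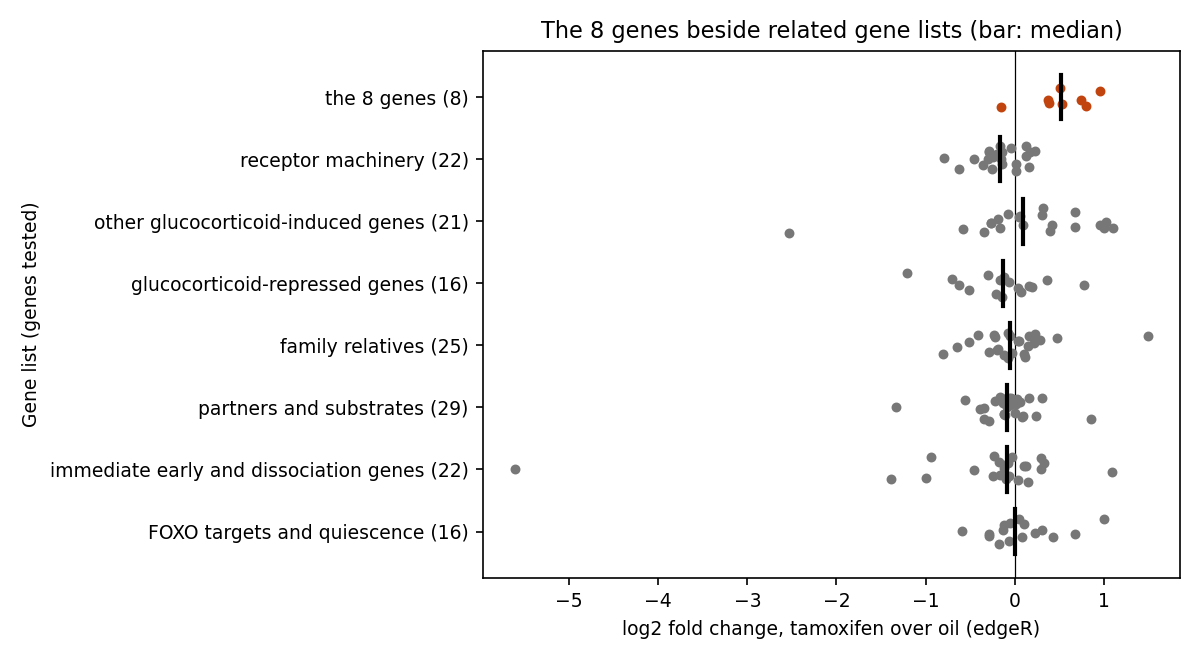
Fitted log2 fold change (tamoxifen over oil) of every tested gene of the 8 members (top) and of the 7 related lists, 1 point a gene, with a bar at each median. The median is 0.52 for the members and lies between -0.16 and 0.09 for the other lists; the point farthest left is Hspa1b.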

How the data were processed

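RNA-seq libraries of liver lymphocytes from mice, 3 after tamoxifen and 3 after oil, were prepared by SMARTer Ultra Low reverse transcription and PCR, per the labels' protocols; these carry no molecular identifiers, so intervals cover counting error only. Per the file headers, the deposited table holds, for each gene, raw counts and the authors' FPKM in every library and their p-value and q-value for tamoxifen against oil. The submitters' processing notes name HISAT2, StringTie and mm10; no source used here gives the counter, strand setting or annotation. Replicate numbers are those of the sample titles; the table numbers its columns otherwise and they were matched by the sample descriptions.

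Counts were analysed with edgeR 4.0.16 (R 4.3.3): TMM factors, the default filter by group, the quasi-likelihood test with group as the only term, Benjamini-Hochberg adjustment over all tested genes and a threshold of 0.05. The script was tested on simulated data. CPM values use TMM-scaled totals of the tested genes; log2 CPM uses a prior count of 2. Standard errors come from the F statistic. Alternatives used DESeq2 1.42.0 and limma 3.58.1. Levels between genes use the authors' FPKM. Coordinates are those of the table (mm10); exon overlaps come from GENCODE M21 and promoters from RefSeq (GRCm38.p6).

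The members and lists were chosen with earlier results of these data known. Named genes were the members, the 5 genes most like Tsc22d3 (Pearson r, mean of at least 10 CPM, predicted gene models left out), and from each list the 3 genes of at least 10 CPM with the largest absolute log2 fold change, plus any that passed; genes named after their values were seen are marked so, and relatives of members stand beside them with their levels. Other lists held markers of ILC1 and NK cells, T cells, B cells, macrophages, neutrophils, dendritic cells, hepatocytes, endothelium and erythroid cells.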

Additional observations from a re-analysis of the deposited data

How the results depend on the processing

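The log2 fold changes of the 8 genes moved by less than 1 SD between replicates under all 16 alternatives. For a single gene, leaving out 1 of 3 libraries can hardly shift a group mean by 1 SD. By that measure such settings are no check of stability, and Nr3c1 changed sign within it. The median over the 8 was 0.45 to 0.61. Tsc22d3 ran from 0.88 to 1.01, Sgk1 from 0.61 to 0.87, Txnip from 0.63 to 0.93, Fkbp5 from 0.37 to 0.62, Zfp36l2 from 0.34 to 0.70, Zfp36 from 0.32 to 0.45 and Dusp1 from 0.25 to 0.48, while Nr3c1 ran from -0.41 to 0.09. The number of genes called over the whole table was 1 in the main analysis. It was 18 with DESeq2, 6 with no filter on low counts, 0 with the replicate number as a block, and 0 in each of the 3 limma fits to log2 FPKM (pseudocount 1, pseudocount 0.1, and pseudocount 1 with no filter). Leaving out 1 library gave 0 (without tamoxifen library 3) to 6 genes (without tamoxifen library 1); it was 2, 3 and 4 without oil libraries 1, 2 and 3. At an unadjusted p under 0.05, the block had 564 genes and the limma fits 445, 438 and 635; without tamoxifen library 3 it was 282. Of the 16 alternatives, 15 called none of the 8 genes and DESeq2 called Tsc22d3. The cause of these shifts was not tested. Same-numbered libraries were not taken as pairs. Their deviations from the group means correlated at -0.0711, 0.266 and 0.164 for numbers 1, 2 and 3, against -0.328 to 0.165 between unlike numbers. The highest value was that of number 2, so the correlations do not settle whether the numbers mark pairs. The median of the other glucocorticoid-induced genes, 0.09 in the main analysis, was 0.06 to 0.29, highest with no filter on low counts. The list medians moved by less than 1 SD except that of the glucocorticoid-repressed genes without oil replicate 3 (0.07, against -0.13); those of the immediate early genes (-0.16 to 0.08), the relatives (-0.09 to 0.02) and the FOXO genes (-0.18 to 0.08) crossed 0.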
